A study of Caenorhabditis elegans with 3 samples.

Results

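The ceh genes are the numbered members of the homeobox family of Caenorhabditis elegans, and their occupancy by the nuclear zinc-finger protein MEP-1 was read from ChIP-seq region lists. The members were all protein-coding genes of the nuclear chromosomes whose symbol begins with ceh- and a digit, apart from ceh-13, which was not analysed here. They numbered 62 of 19973 genes in Ensembl release 115 (assembly WBcel235, the same as ce11). The study profiled whole worms of the L4 larval stage, males and females pooled, of strain OP102, whose genotype in the labels is unc-119(tm4063) III; wgIs102. The wgIs102 transgene carries MEP-1 with a GFP tag, and for replicate 3 the labels add that the tag is a C-terminal GFP-FLAG fusion. The promoter of the transgene is not given in the sources used here. All samples carry the unc-119 allele and the transgene, there was 1 group with biological replicates 1, 2 and 3, and an untagged or mutant strain was not analysed here. The replicates therefore allow no comparison of conditions, and the comparison is between ceh genes and all protein-coding genes within the same lists.

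Homeobox genes encode transcription factors that bind DNA through a homeodomain. In the worm they specify the identity of neurons, muscles and epidermal cells, and many act in a few cells only. They fall into classes by their homeodomain and accompanying domains: CUT class proteins carry cut domains, TALE proteins have a homeodomain with a longer loop and include partners of Hox proteins, and POU, LIM, sine oculis-like and paired-like (PRD-like) proteins act in many sensory, motor and pharyngeal cells. MEP-1 works with LET-418, the worm Mi-2 chromatin remodeller, and with histone deacetylase HDA-1, and is best known for keeping germline genes silent in somatic cells. Because whole animals were used, a region occupied in few cells cannot be told apart from one occupied weakly in many.

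The authors' optimal IDR list keeps regions that ranked reproducibly by the irreproducible discovery rate, and it held 5209 nuclear regions. Each region has a point source, the position of strongest signal, and a score, which is the authors' signal value. No scale is given for it, so it was used to rank regions within a list only. Each replicate also has a relaxed list of 30000 regions that reaches into background. For each replicate, the 5167 distinct regions with the highest scores are called its top regions, because the IDR list has that many distinct intervals. A promoter point is a point source from 500 bp upstream to 100 bp downstream of any annotated transcription start site (TSS). Read depth is unknown from these lists, and replicates 1 and 2 share a library size range of 150 to 350 bp in the labels, whereas replicate 3 has another stock source and a sonication note.

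The sequences shown are those at the 2 promoter points, at ceh-38 and ceh-39, and at 3 intergenic points upstream of other ceh genes. Those at ceh-20 and ceh-48 were chosen for their replicate ranks and that at ceh-58 for a motif at the point. They were read from the RefSeq genome of assembly WBcel235 on the strand of the gene, 5′ to 3′. The 11 capital letters are centred on the IDR point source. At ceh-38 the point source lies in an exon outside the coding sequence, so only 29 bases around it are shown, beside the 152 bases of the region that lie upstream of the first TSS.
ceh-38, point source, chrII:6951547-6951575, plus strand: catcatcatGTGCAGGGACTccaaagaaa
ceh-38, upstream of the first TSS, chrII:6951374-6951525, plus strand: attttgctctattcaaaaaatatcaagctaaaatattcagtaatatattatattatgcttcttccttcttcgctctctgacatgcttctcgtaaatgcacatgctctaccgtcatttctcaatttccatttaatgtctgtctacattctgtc
ceh-39, point source, chrX:1856238-1856438, minus strand: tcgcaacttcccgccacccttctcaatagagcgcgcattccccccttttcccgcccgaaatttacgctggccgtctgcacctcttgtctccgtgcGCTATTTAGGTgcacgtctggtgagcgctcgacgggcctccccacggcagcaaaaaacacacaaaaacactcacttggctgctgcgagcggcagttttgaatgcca
ceh-20, point source, chrIII:6978999-6979199, plus strand: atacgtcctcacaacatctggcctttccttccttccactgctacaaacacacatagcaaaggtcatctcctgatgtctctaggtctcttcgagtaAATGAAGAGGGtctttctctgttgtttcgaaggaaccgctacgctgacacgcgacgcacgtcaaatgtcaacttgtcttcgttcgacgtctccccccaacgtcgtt
ceh-48, point source, chrIV:6809891-6810091, plus strand: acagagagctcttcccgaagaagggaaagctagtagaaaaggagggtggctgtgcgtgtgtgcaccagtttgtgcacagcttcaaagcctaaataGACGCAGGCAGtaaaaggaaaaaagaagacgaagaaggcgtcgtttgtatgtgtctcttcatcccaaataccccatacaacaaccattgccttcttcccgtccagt
ceh-58, point source, chrII:10373594-10373794, minus strand: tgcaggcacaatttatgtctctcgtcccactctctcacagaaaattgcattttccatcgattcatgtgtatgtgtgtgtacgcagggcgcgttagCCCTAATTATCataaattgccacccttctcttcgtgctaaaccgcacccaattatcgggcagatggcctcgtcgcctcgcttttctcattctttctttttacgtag

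MEP-1 had few point sources at the promoters of ceh genes. In the IDR list 2 of 62 ceh genes had a promoter point (3.23%), against a background of 12.7% of all protein-coding genes, and both belong to the CUT class. A point lay in the body of 3 ceh genes (4.84%), against 6.40% of all protein-coding genes. A point lay within 5 kb upstream of 7 ceh genes (11.3%), against 26.9%. At any of these places 10 ceh genes had a point (16.1%), against 30.2%, and the other 52 had none. The places overlap: the ceh-38 point counts for promoter and body, and the ceh-39 promoter point also counts as upstream.

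Taken one at a time, replicates 1 and 2 gave the promoter count of the IDR list and replicate 3 gave a higher one. The upstream count was above that of the IDR list in all 3 replicates and highest in replicate 3. Promoter points among the top regions were found at 2, 2 and 4 ceh genes in replicates 1, 2 and 3, against 12.9%, 12.4% and 12.8% of all protein-coding genes. The mean was 4.30% ± 1.86 of ceh genes and 12.7% ± 0.256 of all protein-coding genes (SD, n = 3), and the highest ceh value, 6.45% in replicate 3, lay below every value for all genes. Gene bodies held a top point at 2, 3 and 3 ceh genes, against 6.48%, 6.57% and 6.53% of all genes, so the body share was 4.30% ± 0.931 of ceh genes and 6.53% ± 0.0452 of all genes (SD, n = 3). Within 5 kb upstream there were 9, 8 and 12 ceh genes with a top point, against 27.4%, 26.5% and 27.8% of all genes, giving 15.6% ± 3.36 and 27.2% ± 0.688 (SD, n = 3). At any place 10, 11 and 14 ceh genes had one, against 30.6%, 29.9% and 31.2% of all genes, giving 18.8% ± 3.36 and 30.6% ± 0.656 (SD, n = 3). In each of these 4 places the replicate values for ceh genes and for all genes did not overlap. The SD describes the spread over replicates for the same 62 genes and not the spread over genes, and at gene bodies the gap amounts to 1 or 2 genes.

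**Figure D1:**
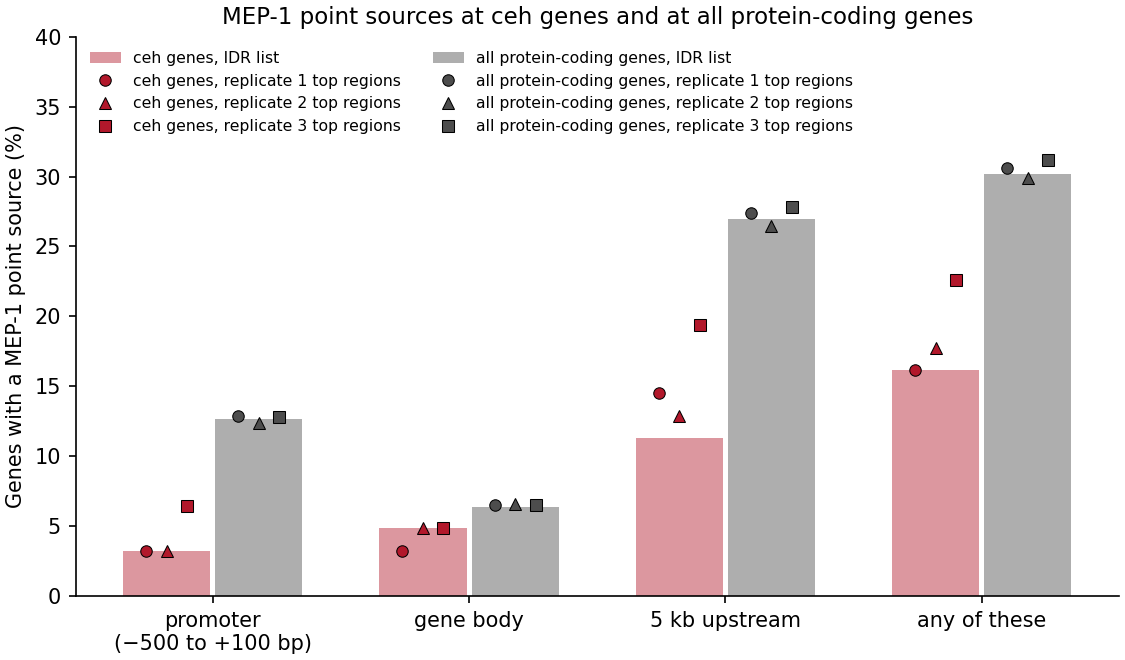
Percent of genes with a MEP-1 point source, by place. Bars are the IDR list and symbols are the top regions of replicates 1, 2 and 3, in red for the 62 ceh genes and in grey for all 19973 protein-coding genes. The red symbols lie below the grey ones at every place, with promoter values of 3.23%, 3.23% and 6.45% for ceh genes.

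Homeobox classes were assigned from textbook knowledge and not from a database, and 22 of the 62 members were given none. Counts by class therefore cover only the members given a class. Of 6 CUT members, 4 had a point at any place, against 30.2% of all protein-coding genes: ceh-38, ceh-39, ceh-21 and ceh-48. For ceh-21 and ceh-39 the count shares 1 region, and among the 3 TALE members 2 had a point. The CUT genes ceh-41 and ceh-49 had none, and their nearest IDR points were 7663 bp and 12527 bp from a TSS. CUT class genes act broadly, and several are known to promote the expression of genes shared by all neurons.

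The ceh-38 region was the strongest at any ceh gene. It spans chrII:6951374-6951750 with a score of 487.4, rank 103 of 5209, and its point source lies 35 bp downstream of the outermost of 11 annotated TSSs, in an exon outside the coding sequence. The overlapping regions scored 217.8, 193.8 and 80.58 in replicates 1, 2 and 3, at ranks 84, 133 and 191. All 3 ranks lie far inside the top regions, and 98.0% of IDR regions had a lower score. Point sources were at +31, +35 and +55 bp of the outermost TSS in replicates 1, 2 and 3. The median score at the promoters of all 2533 protein-coding genes with a promoter point was 126.9.

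ceh-39 is known as an X-linked signal element that counts X chromosomes in sex determination. Its region, chrX:1856234-1856339, had a score of 146.8 and rank 1560, above 70.1% of IDR regions, and its point lay 166 bp upstream of the only TSS. The TSS of a non-coding RNA gene, T26C11.10, is 135 bp from the same point, so the region cannot be given to ceh-39 alone. The overlapping regions scored 42.51, 53.43 and 50.47 in replicates 1, 2 and 3, at ranks 2907, 2106 and 620, so the region was in the top regions of all 3. Its rank was best in replicate 3, whereas the ceh-38 rank was best in replicate 1. A further region 2638 bp upstream of ceh-39, chrX:1858608-1859011, had a score of 157.3 and rank 1418, with its point 9 bp from the start of a tRNA gene. No region of the relaxed list of replicate 1 overlapped it, and it scored 56.09 (rank 1939) in replicate 2 and 31.15 (rank 1606) in replicate 3.

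ceh-39, ceh-21 and ceh-41 lie in a row on the minus strand of chromosome X, so they share upstream sequence. The promoter point of ceh-39 is also the point counted 3602 bp upstream of ceh-21, and these 2 counts rest on 1 region. The start of ceh-21 lies 101 bp from T26C11.9, and that of ceh-41 lies 103 bp from ceh-21. No promoter point was listed for ceh-21 or ceh-41 in the relaxed list of any replicate.

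At ceh-48, a CUT gene of neurons, the point lay 2117 bp upstream in chrIV:6809789-6810192, with a score of 150.5 and rank 1505. It scored 45.73, 63.27 and 46.36 in replicates 1, 2 and 3, at ranks 2600, 1594 and 758, and was in the top regions of all 3. A non-coding RNA gene, C17H12.31, has its TSS 116 bp from this point, so the region lies closer to that gene than to ceh-48.

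**Figure D2:**
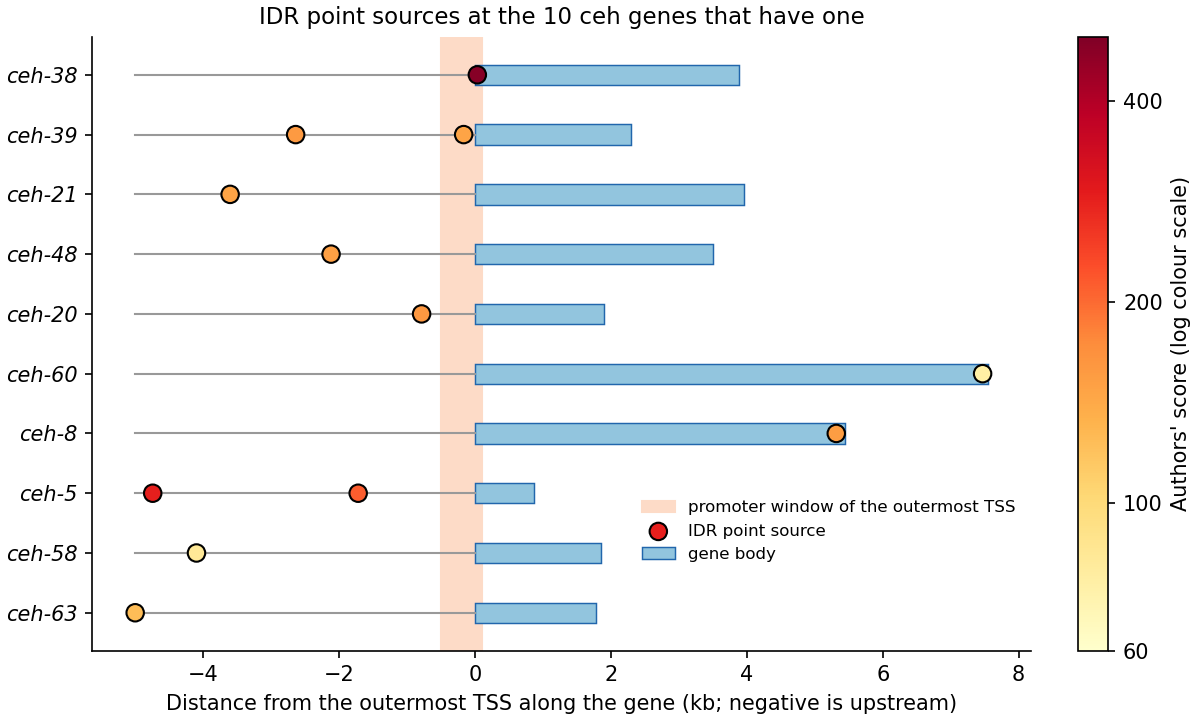
Position of each IDR point source at the 10 ceh genes that have one, in kb from the outermost TSS along the gene. Blue boxes are gene bodies, the shaded band is the promoter window, and colour gives the authors' score on a log scale. Only ceh-38 and ceh-39 have a point inside the band, and the ceh-38 point has the deepest colour, with a score of 487.4.

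Of the 3 TALE genes, ceh-20 and ceh-60 had a point and ceh-40 had none, its nearest point being 42421 bp from its TSS. All encode PBC proteins, the worm relatives of vertebrate PBX factors, and CEH-20 is a partner of Hox proteins. The ceh-20 point lay 785 bp upstream, chrIII:6979040-6979153, with a score of 159.9 and rank 1384, outside the promoter window by position. It scored 79.78, 67.61 and 25.66 in replicates 1, 2 and 3, at ranks 994, 1410 and 2288, all within the top regions, with points between 728 and 871 bp upstream. ceh-60, which acts in the intestine on yolk protein and lipid genes, had a weak point at the other end of its 7551 bp body, 81 bp from the 3′ end (chrX:6522580-6522680, score 76.38, rank 4049). This region was a top region in replicate 2 alone (score 53.07, rank 2132). In replicate 1 it had a score of 20.79 at rank 7749, and no region of replicate 3 overlapped it, although replicate 3 had a top region with its point at +7236 bp of the same gene.

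Among 8 genes given the PRD-like class, ceh-8, a relative of vertebrate RAX genes, was alone in having a point. It lies on chromosome I in a 3′ exon outside the coding sequence, 127 bp from the 3′ end, with a score of 154.7 and rank 1453. The TSS of the non-coding RNA gene ZK265.11 is 10 bp away. The nearest protein-coding TSS is that of col-63, 669 bp from the point, which lies upstream of it. The nearest TSS of ceh-8 is 1335 bp away. No region of replicate 1 overlapped the ceh-8 region, and it scored 68.33 (rank 1384) in replicate 2 and 31.43 (rank 1577) in replicate 3. The remaining PRD-like genes include ceh-10, ceh-36 and ceh-37, which act in the specification of particular neurons and whose nearest points were 13315, 12516 and 6728 bp from a TSS.

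Of 17 genes given the ANTP class, ceh-5, a relative of vertebrate VAX genes, was alone in having an IDR point. Its 2 regions lie on chromosome I, 4741 and 1718 bp upstream. The far one had a score of 286.7 and rank 437, with replicate scores of 94.29, 134.3 and 57.84 at ranks 708, 354 and 445 in replicates 1, 2 and 3. The near one had a score of 213.0 and rank 809, with replicate scores of 89.84, 67.66 and 51.61 at ranks 788, 1408 and 590. Both lie within other genes: the far point is in an intron of ocrl-1, 288 bp upstream of eat-16. The near point is in an exon of eat-16 outside its coding sequence, although the nearest protein-coding TSS to it is that of ceh-5. The ANTP genes with no IDR point at any place include ceh-22, an NK-2 class gene of pharyngeal muscle, ceh-16, the engrailed relative, and ceh-43, the Distal-less relative. ceh-43 had a top point in its body in replicate 1 alone, 407 bp downstream of the TSS, with a score of 29.11 at rank 5033.

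The BarH pair ceh-30 and ceh-31, of which ceh-30 keeps male-specific sensory neurons alive, had no IDR point at any place and no promoter point in any relaxed list. Their nearest IDR points were 14147 bp and 19781 bp from a TSS. The sine oculis-like pair ceh-33 and ceh-34 had nearest points at 5216 bp and 10305 bp. ceh-33 was listed with a promoter point in replicate 3 alone, with a score of 6.285 at rank 13743, and ceh-34, a regulator of pharyngeal neurons, with none. The remaining sine oculis-like gene, ceh-32, the POU genes ceh-6 and ceh-18 and the LIM gene ceh-14 likewise had no IDR point at any place.

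Of 22 ceh genes to which no class was given, ceh-58 and ceh-63 had an upstream point. The ceh-58 point lay 4097 bp upstream, chrII:10373492-10373895, with a low score of 83.37 at rank 3635. It ranked 4254, 4428 and 5244 in replicates 1, 2 and 3, so it fell just outside the top regions in replicate 3. The ceh-63 point, chrX:3678855-3679258, lay 4999 bp upstream, at the edge of the counted sequence, and 500 bp upstream of tag-52, with a score of 124.3 at rank 2066. It scored 58.43, 53.72 and 26.96 at ranks 1735, 2079 and 2093 and was in the top regions of all 3 replicates.

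**Figure D3:**
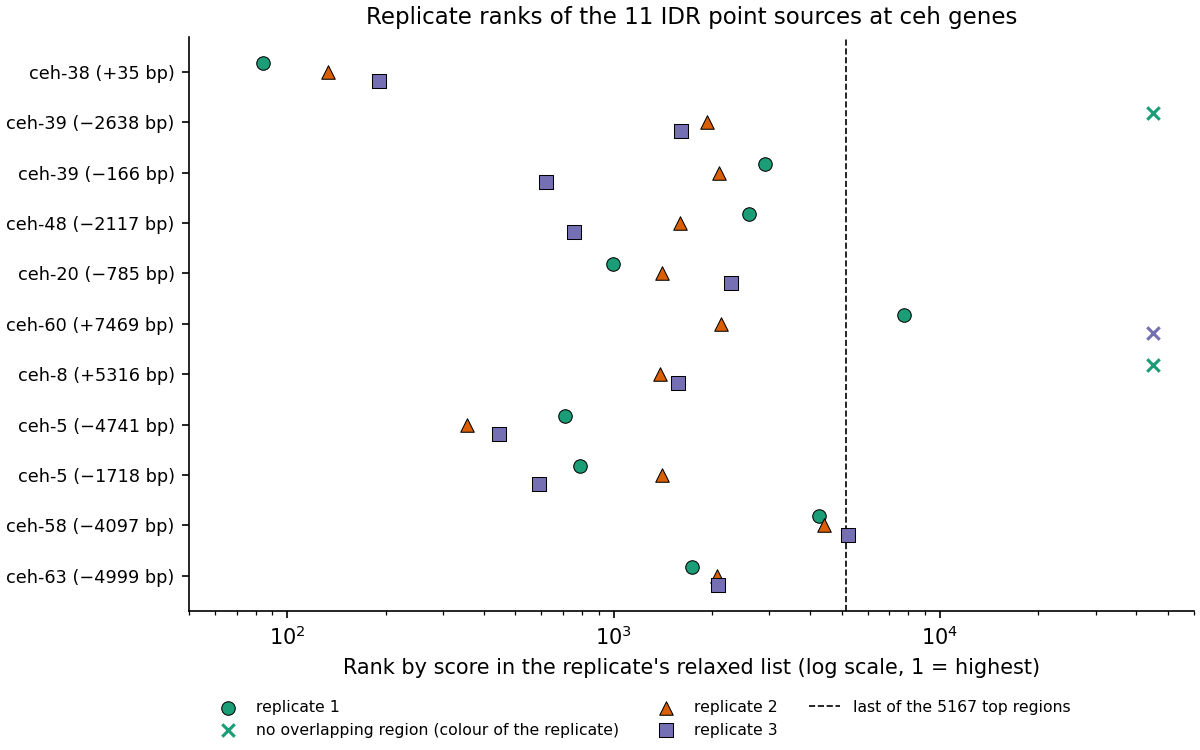
Rank of each of the 11 distinct IDR point sources at ceh genes in replicates 1, 2 and 3 (log scale, 1 is the highest score). The dashed line is rank 5167, the last top region, and a cross marks a replicate with no overlapping region. The ceh-38 region holds ranks 84, 133 and 191, while the ceh-60 and ceh-8 points and the far ceh-39 point lack a region in 1 replicate each.

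The 20 other ceh genes without a class and without an IDR point include ceh-81 to ceh-84 on chromosome II, whose nearest points lie between 194913 and 216347 bp away, the longest distances among the members. By chromosome, X held 18 ceh genes, 29.0% of the members against 13.7% of all protein-coding genes. A promoter point lay at 1 of these 18 ceh genes, against 13.8% of all protein-coding genes on X. On chromosome II it lay at 1 of 13 ceh genes, against 10.7% of all protein-coding genes there. On chromosomes I, III, IV and V it lay at 0 of 8, 0 of 7, 0 of 4 and 0 of 12 ceh genes. The shares of all protein-coding genes on these 4 chromosomes were 17.2%, 18.5%, 11.6% and 8.47%.

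Replicate 3 gave 2 promoters that the IDR list did not hold. The ceh-88 promoter had a point 149 bp upstream with a score of 23.2 at rank 2701 in replicate 3, and no promoter point in the relaxed lists of replicates 1 and 2. The ceh-58 promoter had a point 208 bp upstream with a score of 16.13 at rank 4557 in replicate 3, against ranks of 8806 in replicate 1 and 28621 in replicate 2. These same 2 regions count as upstream points as well, and the ceh-58 one also as upstream of ceh-57. Other upstream top points of replicate 3 that overlapped no IDR region lay at ceh-5, ceh-24, ceh-57, ceh-58, ceh-60 and ceh-99, with 1 region shared by ceh-57 and ceh-58. The part of its different source in these values cannot be told apart from other differences between the replicates.

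At ceh-24, an NK-2 class gene of vulval and other muscles, the replicates and the IDR list differed. A region about 4.6 kb upstream was a top region in every replicate, with points at −4611, −4561 and −4535 bp. It scored 85.6, 75.76 and 44.11 in replicates 1, 2 and 3, at ranks 862, 1141 and 836, and spanned chrV:13808425-13808814 in replicate 1. The pooled list held no overlapping region, and its nearest point was 1135 bp away with a score of 33.68 at rank 10339. The nearest IDR point to that region was 12175 bp away. ceh-24 is therefore counted as having no IDR point, although its ranks in replicates 1 and 2 were better than those of the ceh-48 region.

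The relaxed lists added weak promoter points to a minority of members. A promoter point was listed for 10, 11 and 12 ceh genes in replicates 1, 2 and 3, against 29.4%, 29.0% and 31.9% of all protein-coding genes, and for 11 in the pooled relaxed list, against 28.1%. The replicate mean was 17.7% ± 1.61 of ceh genes and 30.1% ± 1.57 of all genes (SD, n = 3). In none of the 3 replicate lists was a promoter point found for 44 ceh genes (71.0%), against 59.7% of all genes. In all 3 lists one was found for 7 ceh genes (11.3%), against 20.7% of all genes: ceh-37, ceh-38, ceh-39, ceh-43, ceh-58, ceh-63 and ceh-89. The 10 found in 1 list are ceh-5, ceh-7, ceh-18, ceh-33, ceh-57, ceh-79, ceh-88, ceh-91, ceh-99 and ceh-100, and ceh-93 was found in 2.

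Apart from those at ceh-38 and ceh-39, and those at ceh-58 and ceh-88 in replicate 3, these points lay outside the top regions. The ceh-37 promoter, of an Otx-related gene, ranked 8568, 8710 and 8606 in replicates 1, 2 and 3, with points between 69 and 115 bp upstream. These ranks are close to one another. The ceh-43 promoter ranked 14147, 22325 and 5706, and ceh-93 had a pooled score of 58.99, just under the lowest score in the IDR list, 62.24.

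**Figure D4:**
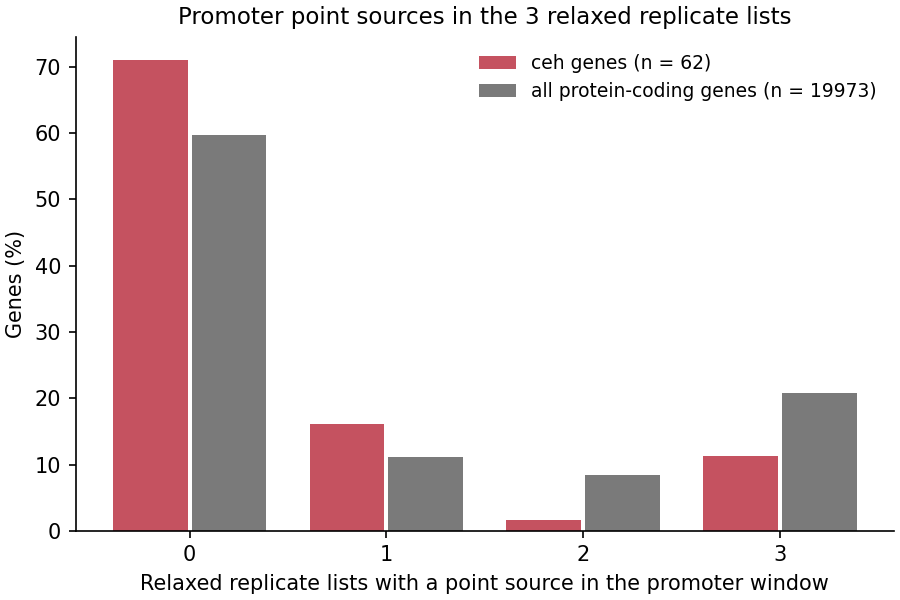
Percent of genes by the number of relaxed replicate lists, 0 to 3, that hold a promoter point, in red for the 62 ceh genes and in grey for all 19973 protein-coding genes. The ceh genes stand at 71.0% for none and 11.3% for all 3, against 59.7% and 20.7% of all genes.

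ceh genes also differ in shape from the average protein-coding gene. The median body was 2735 bp in ceh genes and 2027 bp in all protein-coding genes. The median distance to the next protein-coding gene upstream was 1788 bp for ceh genes and 936 bp for all genes. Per length of body, ceh genes had 13.8 IDR points per Mb (3 points in 0.217 Mb) and all genes had 28.9 per Mb (1861 points). The ceh value rests on few regions: it was 9.21 per Mb without replicate 1 and 4.61 per Mb without replicate 2 or without replicate 3, when the ceh-38 point alone was left. Those lists are smaller, and the share of all genes with a body point was 4.30%, 4.31% and 4.56% in them. With less than 1 kb of free upstream sequence, 1 of 22 ceh genes had a promoter point (4.55%), against 16.2% of all genes. With 1 to 5 kb it was 1 of 26 (3.85%), against 8.91%, and with 5 kb or more it was 0 of 14, against 8.83%. In each of the 3 ranges of free upstream sequence the ceh share was the lower, on 1 gene or none.

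The nearest IDR point lay at a median of 11960 bp from a TSS in ceh genes and 9640 bp in all protein-coding genes. A point lay within 1 kb for 4.84% of ceh genes and 17.3% of all genes, and within 5 kb for 16.1% and 36.1%. Within 20 kb the shares were 71.0% of ceh genes and 68.7% of all genes. At 50 kb they were 87.1% of ceh genes and 89.7% of all genes. Of the distances computed, the gap was widest at 5 kb.

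**Figure D5:**
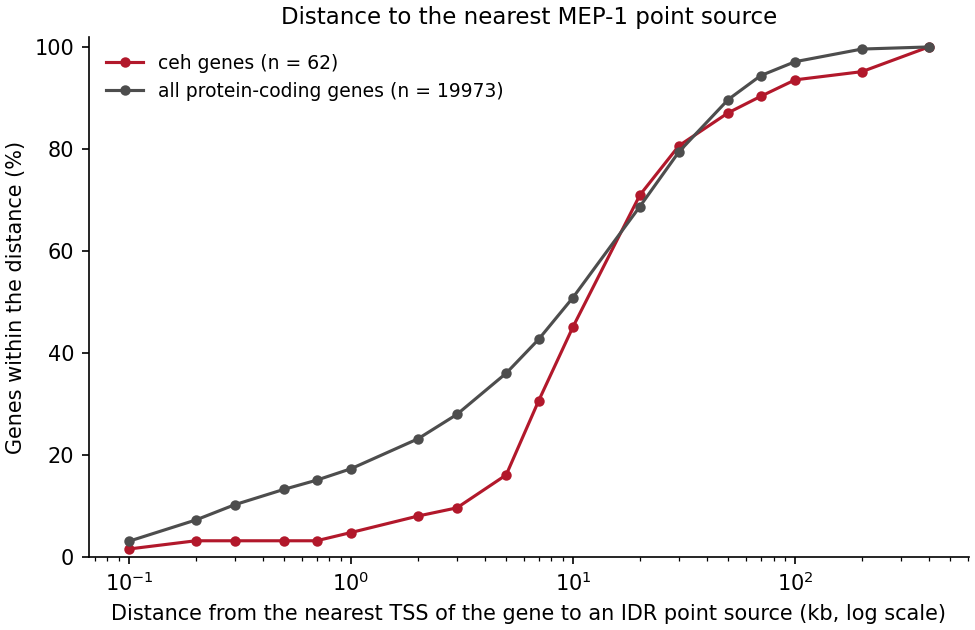
Cumulative percent of genes whose nearest IDR point source lies within a given distance of a TSS (kb, log scale), in red for ceh genes and in grey for all protein-coding genes. The red curve runs below the grey one up to 10 kb, with 16.1% and 36.1% at 5 kb, and the curves meet near 20 kb.

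Homeobox genes with names other than ceh gave a value between those of the ceh genes and of all genes at promoters in the IDR list. In a list of 39 such genes, all found in the annotation, 3 had a promoter point (7.69%): unc-62, a TALE gene (score 85.79), dve-1 (85.29) and the Hox gene lin-39 (67.7). All 3 scores lie below those of ceh-38 and ceh-39. The list had a point in 5 gene bodies (12.8%) and upstream of 3 genes (7.69%), against 4.84% and 11.3% of ceh genes, and at any place in 7 (17.9%), against 16.1%. The other homeobox genes have longer bodies, with a median of 4858 bp, and 29.3 IDR points per Mb of body. In the relaxed replicate lists their mean promoter share was 29.1% ± 3.92, close to the 30.1% ± 1.57 of all genes (SD, n = 3). In replicate 3 it was the higher, 33.3% against 31.9%.

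The base makeup of the ceh points was compared with that of the IDR list. In 201 bp windows the median GC content was 47.8% at the 11 ceh points and 41.8% at all 5209 nuclear points, and the ceh windows ran from 23.4% at ceh-60 to 57.7% at the ceh-39 promoter shown above. The ceh-5 near point and ceh-63 windows, with 38.8% and 39.8%, also lay below the median of all points. The purine repeat GAGAGA, searched on both strands as were all motifs, was in 2 of 11 ceh windows (18.2%), against 40.1% of all windows. The homeodomain core TAATTA was in 1 (9.09%), against 5.53%: it is the ceh-58 window, where it begins 2 bases before the point source and lies inside the capitals. The site recognised by GATA factors, spelled GATAAG, was in none of the ceh windows, against 13.3%, and TTTCAG, the splice acceptor consensus, in none, against 17.3%. No motif contains another in full. In 300 bp promoters, from 250 bp before the TSS, GAGAGA was in 30.6% of ceh genes and 21.8% of all genes, and TAATTA in 14.5% and 15.5%. GATAAG was in 14.5% of ceh promoters and 16.7% of all promoters, and TTTCAG in 46.8% and 51.7%. The 11 windows are few, and a match describes letters only.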

How the data were processed

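MEP-1 ChIP-seq was analysed in whole L4 worms, 3 biological replicates of 1 group. Per the labels, the authors deposited a relaxed region list for each replicate and for the pooled replicates, made as input for IDR, and an optimal IDR list, on builds ce11 and ce10; the ce11 lists were used. Regions were ranked by the authors' deposited score (their signal value, scale not stated). The deposited −log10 q-value takes the same value at every IDR region and was not used for ranking. The deposited point sources gave positions. No aligner, peak caller, setting or IDR threshold is given in the sources used here, and read depth is unknown. The control was not analysed here.

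Genes came from Ensembl release 115 (WBcel235), and 20 mitochondrial regions were left out. The first codon read from the RefSeq genome was ATG in 99.8% of 19973 genes, and all regions lay within the chromosomes. Coordinates are 1-based. Counts were made with Python 3.11.15 and numpy 2.4.6, and the counting was checked on simulated regions. A region was shared when it overlapped by at least 1 bp. All counts are descriptions, with no test and no p-value. The members and lists were chosen with earlier results of these data known. Every member is named or counted: members with a promoter point are given in full, then those with the highest other points, those with a promoter point in the top regions of a replicate, and the pairs ceh-30 and ceh-31, and ceh-33 and ceh-34. ceh-24 was singled out after its values were seen. Alternatives covered the window, the list, the overlap and each replicate left out, and a further one, top regions shared by all replicates, was chosen after seeing the data.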

Additional observations from a re-analysis of the deposited data

How the results depend on the processing

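The promoter count of 2 ceh genes kept within 1.5 times of that value under 14 of 18 alternatives, and ceh-38 and ceh-39 were called under all of them. The alternatives are not independent. Several are parts of the IDR list or narrower windows, where the count can only stay or fall. The 4 that moved were all lists of a single replicate. The share of all protein-coding genes ran from 6.96% to 31.9%, so the gap varied, and the ceh share was always the lower. With the window starting 200 bp upstream the share of all genes was 6.96%, and in the 2604 highest-scoring IDR regions 7.76%. The ceh share was 3.23% in both. The promoter count was 4 (6.45%, against 12.8%) in the top regions of replicate 3 alone. In the relaxed lists of replicates 1, 2 and 3 it was 10, 11 and 12. These are 16.1%, 17.7% and 19.4% of ceh genes, against 29.4%, 29.0% and 31.9% of all genes. The gene-body count of 3 became 15, 17 and 15 in these relaxed lists. These are 24.2%, 27.4% and 24.2% of ceh genes, against 29.4%, 29.9% and 31.8% of all genes. The gene-body count was 1 (1.61%) for regions that were top regions in every replicate, with or without the IDR list. The share of all genes was 3.79% with it and 3.91% without it. With replicates 1, 2 and 3 left out in turn the gene-body count was 2, 1 and 1, against 4.30%, 4.31% and 4.56% of all genes. The upstream count of 7 became 12 in the top regions of replicate 3 (19.35%, against 27.83% of all genes). It was 26, 25 and 36 in the relaxed lists. These are 41.94%, 40.32% and 58.06% of ceh genes, against 48.73%, 49.23% and 56.2% of all genes. The ceh share upstream was thus the higher in the relaxed list of replicate 3. The upstream count was 3 within 2 kb (4.84%, against 18.43%) and 21 within 10 kb (33.87%, against 37.2%). It was 4 (6.45%, against 17.04%) where the window ended at the nearest other protein-coding gene. The count at any place, 10, became 28, 30 and 39 in the relaxed lists. These are 45.2%, 48.4% and 62.9% of ceh genes, against 52.85%, 53.5% and 60.8% of all genes. The ceh share at any place was thus the lower in replicates 1 and 2 and the higher in replicate 3. The 13.8 points per Mb of gene body became 9.21 in the 2604 highest-scoring IDR regions and in the top regions of replicate 1. It was between 4.61 and 9.21 with 1 replicate left out. In the 2604 highest-scoring IDR regions 2 ceh genes had a body point (3.23%), against 3.10% of all genes, so the shares were close there. In the top regions of replicate 1 it was also 2 ceh genes (3.23%), against 6.48% of all genes. The relaxed lists reach into background by construction. For the replicates the cause was not tested. Leaving out a replicate kept IDR regions that were top regions of both others, so these sets are smaller. No paired analysis was possible because there is 1 group. With 62 genes, a change of 1 gene moves a share by 1.61 percentage points, and depth is unknown.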

Other observations

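The ceh-24 region was not alone in being absent from the pooled list. Of 3213 top points of replicate 1 whose regions overlapped top regions of replicates 2 and 3, 57 (1.77%) overlapped no IDR region, and 45 (1.40%) overlapped no region of the pooled relaxed list either. The best of these 45 had rank 564 in replicate 1, and the ceh-24 region had rank 862. Among the ceh genes ceh-24 was the only such case. Counted from these shared points in place of the IDR list, 8 ceh genes (12.9%) had a point at any place, against 22.5% of all protein-coding genes, and ceh-24 was among them. The cause was not tested. A count of 0 in the IDR list at a single gene can therefore stand beside top regions in every replicate.

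Points at some ceh genes lay nearer to the start of another gene than to that of the ceh gene. The far ceh-5 point lay 4 bp from the TSS of the non-coding RNA gene C16C2.7. The ceh-8 point lay 10 bp from that of ZK265.11 and the ceh-48 point 116 bp from that of C17H12.31. The ceh-39 promoter point lay 135 bp from that of T26C11.10 and its far point 9 bp from a tRNA gene. Which of the neighbouring genes a region belongs to was not tested.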
